A study of Mus musculus with 33 samples.

Results

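RNA-seq was examined on day 6 of embryoid body (EB) differentiation, in E14Tg2a mouse embryonic stem (ES) cells and in ΔK9.1 and ΔK9.2, both derived from E14Tg2a. EBs are aggregates in which ES cells differentiate into a mixture of early embryonic cell types. In both clones the region between the *Nanog* enhancer and promoter that carries H3K9me3 in ES cells, a repressive histone mark, was deleted on both alleles with CRISPR/Cas9. The libraries were chosen by their labels: 2 of E14Tg2a (wild type, 129/Ola) and 4 of the clones (2 each), or 6 of the 33 libraries of the series, which also cover days 0, 4 and 8. On day 6 each line has replicates 2 and 3 and no replicate 1. All lines were cultured on gelatine in medium with FCS and LIF before differentiation in serum without LIF. The study replated the aggregates on gelatine after day 4. Day 6 samples were therefore attached outgrowths, 2 days after replating. Per the study's methods, wild-type and clone cells were differentiated side by side and the RNA came from independent assays. Each clone is 1 isolate of the deletion, so a difference shared by both clones cannot be told apart from other differences between the clones and these wild-type cultures.

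*Nanog* encodes a homeodomain factor of the pluripotency network, and its level varies between ES cells grown in serum and LIF. In the embryo the inner cell mass gives rise to the epiblast, which keeps pluripotency for a time, and to the primitive endoderm, which is specified by GATA6 and GATA4 and forms the visceral and parietal endoderm of the yolk sac. Intact EBs make visceral endoderm at their surface. Inside them the epiblast-like cells pass through a primitive streak stage to mesoderm and definitive endoderm under WNT, BMP and NODAL signals. Markers of these lineages were therefore grouped into lists and counted on day 6.

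The gene whose upstream region was deleted and 3 genes that were lower in the clones are shown first by their promoters, each from 250 bases before to 50 after the transcription start (RefSeq, build GRCm38.p6, written 5′ to 3′ on the strand of the gene). *Nanog* lies on the plus strand, and its promoter window is chr6:122707239-122707538. *Cfc1*, which encodes a co-receptor for NODAL, has the window chr1:34535398-34535697 on the plus strand. *Hand2*, which encodes a basic helix-loop-helix factor of the heart and limb, has chr8:57320733-57321032 on the plus strand. *Krt8*, which encodes a keratin of simple epithelia, has chr15:102004293-102004592 on the minus strand, 140 bases from the start in the GENCODE annotation used for positions. Capitals mark TTTGCAT in *Nanog*, letters of the POU motif bound by OCT4, and AGATAA or its reverse complement TTATCT in the other 3, letters of the GATA motif. The promoters of *Afp*, *Cer1* and *Actc1*, also lower in the clones and not printed, do not hold the GATA letters.
Nanog: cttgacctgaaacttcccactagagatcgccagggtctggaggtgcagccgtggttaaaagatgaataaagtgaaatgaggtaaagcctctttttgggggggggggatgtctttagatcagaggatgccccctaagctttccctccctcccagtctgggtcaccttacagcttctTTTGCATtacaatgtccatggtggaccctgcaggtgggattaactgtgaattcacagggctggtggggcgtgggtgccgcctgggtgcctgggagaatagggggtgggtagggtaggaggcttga
Cfc1: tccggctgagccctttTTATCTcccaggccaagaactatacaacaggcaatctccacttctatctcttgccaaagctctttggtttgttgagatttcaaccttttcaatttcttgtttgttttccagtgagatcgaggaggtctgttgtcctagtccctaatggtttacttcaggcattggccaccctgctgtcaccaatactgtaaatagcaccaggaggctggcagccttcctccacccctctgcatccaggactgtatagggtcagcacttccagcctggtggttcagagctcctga
Hand2: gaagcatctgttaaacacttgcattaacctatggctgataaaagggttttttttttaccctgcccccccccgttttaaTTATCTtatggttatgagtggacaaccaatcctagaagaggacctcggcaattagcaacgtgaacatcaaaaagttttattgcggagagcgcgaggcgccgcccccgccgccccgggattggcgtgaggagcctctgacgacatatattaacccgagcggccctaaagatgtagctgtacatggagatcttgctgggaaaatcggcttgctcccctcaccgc
Krt8: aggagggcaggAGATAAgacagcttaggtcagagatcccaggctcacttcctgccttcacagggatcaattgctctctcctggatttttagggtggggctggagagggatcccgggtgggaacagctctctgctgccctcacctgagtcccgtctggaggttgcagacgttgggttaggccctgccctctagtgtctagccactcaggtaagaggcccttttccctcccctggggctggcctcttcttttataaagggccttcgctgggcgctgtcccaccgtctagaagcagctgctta
All listed genes with a promoter in the RefSeq table (11386 of 16336) were searched on both strands for 4 motifs, none of which overlapped with another in the 4 windows above: the GATA motif AGATAA, the TCF/LEF motif CTTTGA, the T-box motif TCACACC and the POU motif TTTGCAT. The GATA letters were held by 6.23% of all promoters and by 11 of the 109 available promoters (10.1%) of genes that were lower outside the chromosome 14 segment described further on, the 3 printed among them. They were held by 3 of the 31 available promoters of higher genes (9.68%) and by 2.27% of those of lower genes in the segment. The TCF/LEF letters were held by 11.8% of all promoters and 15.6% of those 109, the T-box letters by 3.41% and 2.75%, and the POU letters by 3.34% and 4.59%. These are counts of letters, given without a test, and say nothing of binding.

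*Nanog* (chr6:122707489-122714633, mm10, plus strand) was measured first. Its level was 122 and 140.5 TPM (transcript abundance corrected for gene length and scaled to a fixed sum per library) in E14Tg2a replicates 2 and 3. It was 188 and 145 TPM in ΔK9.1 and 179 and 172 TPM in ΔK9.2. All 4 clone libraries lay above both E14Tg2a libraries. The difference was 0.37 on the log2(TPM + 1) scale, the scale of all log2 fold changes here, with an exact two-sided permutation p of 0.133, the smallest that 2 against 4 libraries can give. In the model across all genes (limma) the adjusted p was 0.561. Among the other 9 listed genes within 150000 bases of *Nanog* none was called: *Slc2a3*, a neuronal-type glucose transporter and the one with the highest level, had 404.5 and 527 TPM in E14Tg2a and 313 to 448 TPM in the clones (log2 fold change -0.25, adjusted p = 0.572 by limma). *Dppa3*, a maternal-effect gene of the germ line and ES cells, had 24.9 and 26.9 TPM against 22.2 to 40.2 TPM (0.15, adjusted p = 0.919 by limma). *Foxj2*, a forkhead factor, had 5.70 and 6.37 TPM against 3.15 to 5.38 TPM (-0.40, adjusted p = 0.175 by limma), and *Gdf3*, a TGFβ-family ligand, 8.79 and 6.87 TPM against 6.97 to 12.1 TPM (0.30, adjusted p = 0.606 by limma).

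The depth of each library cannot be read from TPM, and the precision comes from the spread between replicates, whose median SD over genes was 0.107 for E14Tg2a, 0.167 for ΔK9.1 and 0.106 for ΔK9.2 on the log2 scale. ΔK9.1 replicate 3 stood apart: on the first principal component of the 6 libraries (47.5% of the variance) it lay at 44.4, the other clone libraries between 1.31 and 13.3, and E14Tg2a at -39.8 and -27.4. The summed TPM of mitochondrial mRNAs overlapped between E14Tg2a (26680 to 33270) and the clones (30080 to 40590). Histone mRNAs (53 genes), which carry no poly-A tail, summed to 146 and 186.5 TPM in E14Tg2a and 75.3 to 99.5 TPM in the clones. The part of RNA quality in the results was not tested. Markers of undifferentiated cells, visceral endoderm and mesoderm were all measured above 0 in E14Tg2a, and the levels of each list are given with its counts.

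Of 16336 genes, 41 were higher and 224 lower in the mean of both clones on day 6 (limma, adjusted p under 0.05 and a log2 fold change beyond 1 in size), or 0.251% and 1.37% of all genes tested. All 41 higher genes and 222 of the 224 lower genes had clone libraries that did not overlap with E14Tg2a. Over all genes, 12.8% had all 4 clone libraries above and 19.6% below both E14Tg2a libraries. Outside a segment of chromosome 14, 151 of 192 called genes (78.6%) were lower. The counts depend on single libraries, and are given here as higher and lower. They were 4 and 54 without E14Tg2a replicate 2, and 22 and 139 without E14Tg2a replicate 3. They were 117 and 414 without ΔK9.1 replicate 2, and 13 and 99 without ΔK9.1 replicate 3. They were 24 and 132 without ΔK9.2 replicate 2, and 33 and 182 without ΔK9.2 replicate 3. With 1 library left in a line, its spread was taken from the other groups. A fit of the 6 day 6 libraries alone over all genes called 1 higher and 4 lower genes, of which 0 were among the 265. With genes of at least 1 TPM, the fit of these 6 libraries called 23 and 117.

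**Figure D1:**
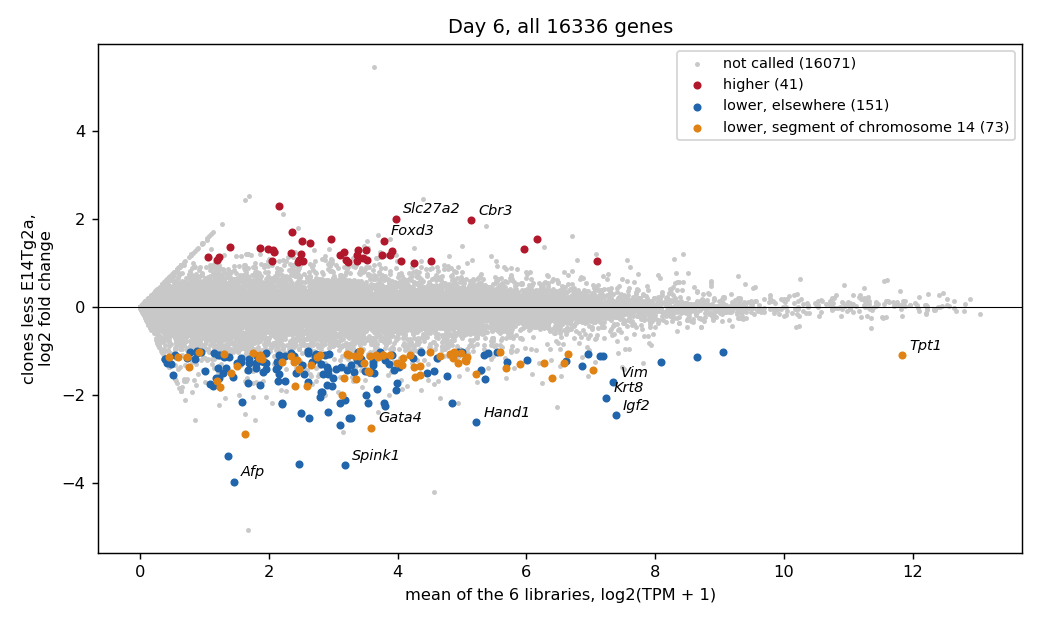
Each point is 1 of the 16336 genes, with the mean level of the 6 day 6 libraries on the x axis (log2(TPM + 1)) and the log2 fold change of the clones against E14Tg2a on the y axis. The 151 lower genes outside the chromosome 14 segment (blue) reach a log2 fold change of -3.97 (*Afp*), whereas the largest of the 41 higher genes (red) reaches 2.29, and the 73 lower genes of the segment (orange) all lie below -1.

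The largest falls among called genes were in genes of the visceral endoderm, the yolk sac layer that secretes plasma proteins. *Afp* (chr5:90490737-90508907), the alpha-fetoprotein gene, was at 4.65 and 51.4 TPM in E14Tg2a replicates 2 and 3. It was at 0.0331 and 0.165 TPM in ΔK9.1 and 0 and 0.206 TPM in ΔK9.2, a log2 fold change of -3.97 (SE 1.05, adjusted p = 0.0303 by limma). All 4 clone libraries were close to 0, and the E14Tg2a libraries themselves lay far apart. *Ttr*, which encodes the thyroid hormone carrier transthyretin, had 3.86 and 30.4 TPM in E14Tg2a and 0 to 0.445 TPM in the clones (-3.39, SE 0.91, adjusted p = 0.0332 by limma). *Spink1*, a secreted inhibitor of trypsin, had 34.0 and 63.8 TPM against 0.705 to 4.85 TPM (-3.59, SE 1.02, adjusted p = 0.0467 by limma). *Ctsh*, a lysosomal cysteine protease, had 16.1 and 47.4 TPM against 0.996 to 1.83 TPM (-3.56, SE 0.90, adjusted p = 0.0243 by limma). In each of these 4 genes E14Tg2a replicate 3 was the higher of the 2 wild-type libraries. Without E14Tg2a replicate 3 the log2 fold change of *Afp* was -2.36 and without replicate 2 -5.58, and those of *Ttr* were -2.05 and -4.74.

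*Cer1* (chr4:82881751-82885148), a secreted antagonist of NODAL, BMP and WNT made by the anterior visceral and definitive endoderm, had 12.5 and 27.6 TPM in E14Tg2a, 4.66 and 0.661 TPM in ΔK9.1 and 3.76 and 2.13 TPM in ΔK9.2 (-2.51, SE 0.46, adjusted p = 0.00188 by limma). *Tmprss2*, a membrane serine protease, had 4.72 and 7.81 TPM against 0.716 to 1.51 TPM (-1.72, adjusted p = 0.0343 by limma). Of the 35 visceral endoderm genes in the list 30 were listed, of which 6 fell, 0 rose and 24 did not pass the test. The list had a median log2 fold change of -1.39, beside -0.03 over all genes, and 28 of its 30 members were below 0. The summed TPM was 871 and 1438 in E14Tg2a and 617 to 885 in the clones, so that the sums overlapped: *Apoe*, an abundant lipid carrier chosen for mention after its values were seen, gave 338 and 530.5 TPM in E14Tg2a and 278.5 to 658 TPM in the clones. In these bulk samples fewer cells of a type and less RNA per cell cannot be told apart. The list rests on E14Tg2a replicate 3, without which 0 of its 6 genes were called and the median was -0.69. Without E14Tg2a replicate 2 the median was -2.18 and 2 of the 6 were called, and 1 was without ΔK9.1 replicate 3. Without ΔK9.2 replicate 2 or 3 the counts were 1 and 2, and without ΔK9.1 replicate 2 all 6 were called.

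**Figure D2:**
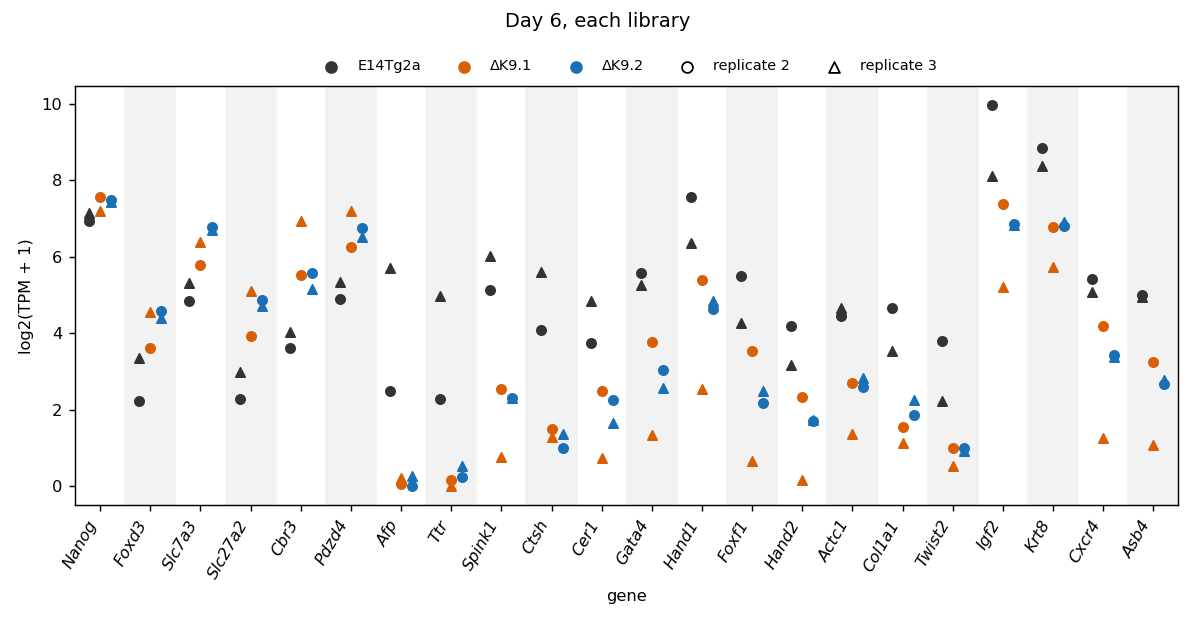
Levels of 22 genes (x axis) in each of the 6 day 6 libraries, on the log2(TPM + 1) scale (y axis), with E14Tg2a in black, ΔK9.1 in orange and ΔK9.2 in blue, and circles for replicate 2 and triangles for replicate 3. The clone libraries lie above E14Tg2a for the first 6 genes and below it for the other 16, and the orange triangle, ΔK9.1 replicate 3, is the lowest point for most mesoderm and endoderm genes.

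Of 16 listed regulators of primitive endoderm, 1 fell and 0 rose. *Gata4* (chr14:63198922-63271692), a zinc finger factor of primitive endoderm and heart, was at 46.6 and 37.5 TPM in E14Tg2a, 12.6 and 1.53 TPM in ΔK9.1 and 7.27 and 4.94 TPM in ΔK9.2 (-2.74, SE 0.75, adjusted p = 0.0378 by limma). Its highest clone library was below both wild-type libraries. *Gata4* lies in the segment of chromosome 14 in which the median of all genes was -0.78. *Sox17*, a regulator of primitive and definitive endoderm chosen for mention after its values were seen, had 25.2 and 40.9 TPM against 0.595 to 9.06 TPM and was not called (-2.83, adjusted p = 0.0698 by limma), and *Gata6*, chosen in the same way, had 19.0 and 20.2 TPM against 0.892 to 9.06 TPM (-1.93, adjusted p = 0.197 by limma). All 16 regulators had a log2 fold change below 0 and the median was -1.22, with 14 whose libraries did not overlap. *Gata4* was called without ΔK9.1 replicate 2 (-3.34) and lost its call without any other library, with log2 fold changes of -2.89 to -2.13.

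Of 22 listed genes of parietal endoderm and basement membrane, 1 fell: *Krt8*, whose promoter is printed above, with 460 and 334 TPM in E14Tg2a and 52.2 to 119 TPM in the clones (-2.06, SE 0.52, adjusted p = 0.0244 by limma). It kept its call only without ΔK9.1 replicate 2, with log2 fold changes of -2.32 to -1.80 over the 6 libraries left out in turn. The list's median was -0.82, 16 members had no overlap below, and the summed TPM was 2085 and 2116 in E14Tg2a and 791 to 1210 in the clones, which did not overlap.

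The second group of falls was in mesoderm that forms heart, muscle and mesenchyme. *Hand1* (chr11:57828705-57832818), a basic helix-loop-helix factor of extra-embryonic and cardiac mesoderm, was at 187 and 81.6 TPM in E14Tg2a, 40.9 and 4.82 TPM in ΔK9.1 and 24 and 27.8 TPM in ΔK9.2 (-2.61, SE 0.54, adjusted p = 0.00574 by limma). *Foxf1* (chr8:121084386-121088144), a forkhead factor of lateral and extra-embryonic mesoderm, was at 44.0 and 18.3 TPM in E14Tg2a, 10.5 and 0.573 TPM in ΔK9.1 and 3.52 and 4.65 TPM in ΔK9.2 (-2.67, SE 0.59, adjusted p = 0.00929 by limma). Both were highest in E14Tg2a replicate 2, the reverse of the visceral endoderm genes, and lowest in ΔK9.1 replicate 3. *Hand2* was at 17.4 and 8.00 TPM in E14Tg2a, 4.07 and 0.110 TPM in ΔK9.1, and 2.25 and 2.29 TPM in ΔK9.2 (-2.21, SE 0.55, adjusted p = 0.0219 by limma).

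Genes of the contractile apparatus were also among those called, with *Tpm1* given further on. *Actc1*, the cardiac actin gene, had 20.9 and 24.5 TPM in E14Tg2a and 1.59 to 6.15 TPM in the clones (-2.19, SE 0.32, adjusted p = 0.000216 by limma). *Acta1*, the skeletal actin gene and in no list, had 26.9 and 32.6 TPM against 3.05 to 6.47 TPM (-2.53, SE 0.50, adjusted p = 0.00362 by limma), and *Myl7*, the atrial myosin light chain, had 7.01 and 12.6 TPM against 2.43 to 4.12 TPM (-1.31, adjusted p = 0.00909 by limma). Of 22 listed genes of cardiac mesoderm and muscle 4 fell and 0 rose, 21 were below 0, 16 had no overlap, and the median was -0.80. Their summed TPM was 322 and 184 in E14Tg2a and 41.1 to 87.1 in the clones. Of the 4, *Actc1* was called without each library in turn (-2.52 to -1.86). *Hand1* lost its call without E14Tg2a replicate 2 (-2.01) and *Myl7* without E14Tg2a replicate 3 (-0.93), and *Hand2* was called only without ΔK9.1 replicate 2 (-2.76 to -1.66 over the 6).

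Of the 44 listed mesenchyme and contractile genes, the longest list, 10 were called, all lower, beside 1.37% lower over all genes. *Col1a1*, the alpha 1 chain of type I collagen, had 24.4 and 10.5 TPM in E14Tg2a and 1.18 to 3.74 TPM in the clones (-2.40, SE 0.45, adjusted p = 0.00211 by limma). *Twist2*, a basic helix-loop-helix factor of mesenchyme, had 13.0 and 3.69 TPM against 0.441 to 1.01 TPM (-2.16, SE 0.48, adjusted p = 0.00955 by limma). *Vim*, the intermediate filament of mesenchymal cells, had 429 and 297 TPM against 44.7 to 170 TPM (-1.70, SE 0.38, adjusted p = 0.00999 by limma). *Foxf1* was among the 10, and the other 6 were *Msx2* (-1.73), *S100a6* (-1.64), *Col5a1* (-1.31), *Cd44* (-1.22), *Ahnak* (-1.11) and *Tpm1* (-1.01). The clone libraries all lay below both E14Tg2a libraries for 31 of the 44, beside 19.6% over all genes. Of the 44, 41 were below 0, and the median was -0.93. The summed TPM was 3003 and 2549 in E14Tg2a and 797 to 1585 in the clones. Without E14Tg2a replicate 2 none of the 10 was called, with a median of -0.90 over the list and a log2 fold change of -1.37 for *Twist2*. Of the 10, 3 were called without ΔK9.1 replicate 3, 6 without E14Tg2a replicate 3, 7 without ΔK9.2 replicate 2, and 10 without either of the other 2 libraries.

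Other large falls outside the lists were in *Igf2* and *Asb4*. *Igf2*, an imprinted growth factor of mesoderm and extra-embryonic endoderm, was at 996.5 and 274 TPM in E14Tg2a, 166 and 35.8 TPM in ΔK9.1 and 115 and 114 TPM in ΔK9.2 (-2.46, SE 0.67, adjusted p = 0.0356 by limma), and was called only without ΔK9.1 replicate 2 or E14Tg2a replicate 3. Without E14Tg2a replicate 2 its log2 fold change was -1.53. *Asb4* (chr6:5383386-5433022), a substrate adaptor of a ubiquitin ligase found in vascular and placental lineages, was at 31.1 and 29.6 TPM in E14Tg2a, 8.43 and 1.12 TPM in ΔK9.1 and 5.38 and 5.83 TPM in ΔK9.2 (-2.53, SE 0.40, adjusted p = 0.00052 by limma). It was called without each library in turn (-3.07 to -1.99). Of the 10 largest called falls outside the chromosome 14 segment, 3 were called without E14Tg2a replicate 2, 4 without E14Tg2a replicate 3, 4 without ΔK9.1 replicate 3, 5 without ΔK9.2 replicate 2, 6 without ΔK9.2 replicate 3 and 10 without ΔK9.1 replicate 2.

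Primitive streak and definitive endoderm genes were counted next. Of 24 streak and early mesoderm genes, 2 fell. *Gsc*, a homeobox gene of the anterior streak, had 26.5 and 31.1 TPM in E14Tg2a, 16.7 and 2.47 TPM in ΔK9.1 and 16.1 and 13.0 TPM in ΔK9.2 (-1.43, SE 0.40, adjusted p = 0.0426 by limma). *Mesp2*, a basic helix-loop-helix factor of early mesoderm and somites, had 6.70 and 5.98 TPM against 1.06 to 5.07 TPM (-1.08, SE 0.30, adjusted p = 0.0373 by limma). Both were called only without ΔK9.1 replicate 2, and without ΔK9.1 replicate 3 their log2 fold changes were -0.84 and -0.69. The median of the list was -0.95 with 23 of 24 below 0, but ΔK9.1 replicate 3 carried much of it, and without that library the median was -0.34 (-1.48 without ΔK9.1 replicate 2). The summed TPM was 170 in ΔK9.1 replicate 3 and 1148 in ΔK9.1 replicate 2, beside 1116 and 1119 in E14Tg2a and 786 and 877 in ΔK9.2.

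In the list of definitive endoderm and gut tube 3 of 16 listed genes fell, *Cer1*, *Gsc* and *Cxcr4*, a chemokine receptor. *Cxcr4* was at 41.7 and 33.1 TPM in E14Tg2a, 17.1 and 1.37 TPM in ΔK9.1 and 9.84 and 9.46 TPM in ΔK9.2 (-2.19, SE 0.53, adjusted p = 0.0180 by limma). It kept its call without ΔK9.1 replicate 2 and without ΔK9.2 replicate 3 (-2.93 to -1.46 over the 6). Here 10 of 16 members were below 0, with a median of -0.76, or -0.28 without ΔK9.1 replicate 3.

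Of 25 genes that respond to WNT, BMP or retinoic acid 3 fell: *Nkd1*, an inhibitor of WNT signalling (33.1 and 19.9 TPM against 6.16 to 18.6 TPM, -1.30, adjusted p = 0.0337 by limma), *Smad6*, an inhibitor of BMP signalling (31 and 16.3 TPM against 5 to 9.73 TPM, -1.48, adjusted p = 0.0111 by limma), and *Msx2*, a homeobox target of BMP (47.0 and 25.4 TPM against 2.78 to 18.8 TPM, -1.73, adjusted p = 0.0166 by limma). All 3 lost their calls without E14Tg2a replicate 2 and without ΔK9.1 replicate 3 (-1.14 for *Msx2* without the latter), and 2 of the 3 were called without E14Tg2a replicate 3 and without either ΔK9.2 library. The median of the list was -0.62, and 22 of 25 were below 0. Without ΔK9.1 replicate 3 the median of this WNT, BMP and retinoic acid response list was -0.27, and without ΔK9.1 replicate 2 it was -0.92. *Cfc1*, in no list, fell from 41.8 and 34.8 TPM to 5.30 to 13.0 TPM (-2.24, SE 0.42, adjusted p = 0.00222 by limma) and lost its call only without E14Tg2a replicate 2 (-1.95 to -2.53 over the 6).

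**Figure D3:**
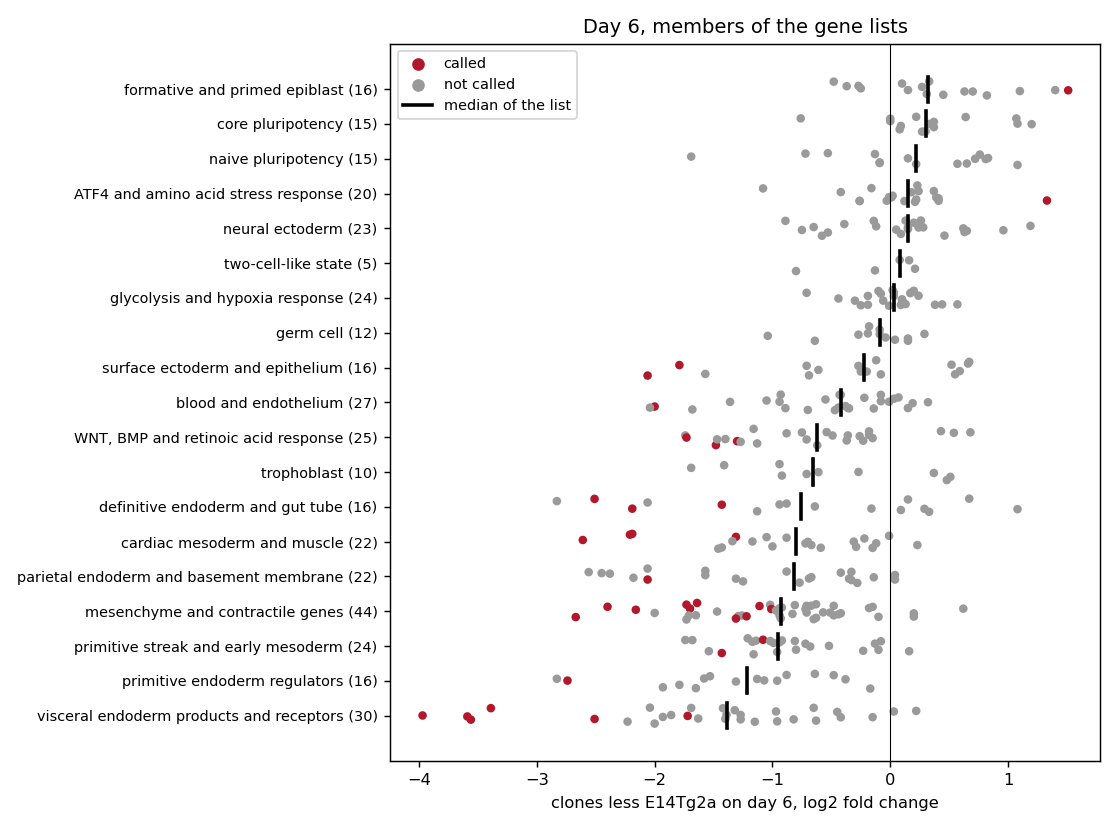
Each row is a gene list with the number of its members in the table, each point is the log2 fold change of 1 member on day 6 (x axis, clones less E14Tg2a), red where called, and the black bar is the list's median. The medians run from -1.39 in visceral endoderm to 0.32 in formative and primed epiblast, and the called genes lie to the left except *Foxd3* and *Slc7a3*.

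The 41 higher genes had smaller changes than the largest called falls, and no list held more than 1 of them. *Slc27a2*, a very long chain acyl-CoA synthetase, was at 3.83 and 6.98 TPM in E14Tg2a, 14.3 and 33.2 TPM in ΔK9.1 and 28.1 and 25.1 TPM in ΔK9.2 (2.01, SE 0.55, adjusted p = 0.0353 by limma). *Cbr3*, a carbonyl reductase, was at 11.2 and 15.5 TPM in E14Tg2a, 45.2 and 121 TPM in ΔK9.1 and 47.0 and 34.8 TPM in ΔK9.2 (1.98, SE 0.51, adjusted p = 0.0278 by limma). *Foxd3* (forkhead box D3), a repressor that ES cells need to stay undifferentiated and the only called member of the 16 formative and primed epiblast genes, was at 3.65 and 9.21 TPM in E14Tg2a, 11.3 and 22.6 TPM in ΔK9.1 and 23 and 20 TPM in ΔK9.2 (1.51, SE 0.43, adjusted p = 0.0440 by limma). Its call was kept without E14Tg2a replicate 3 or ΔK9.1 replicate 2 and lost without any other library (0.94 to 2.07 over the 6).

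*Slc7a3*, a transporter of cationic amino acids and the only one called of 20 listed genes of the ATF4 and amino acid stress response, was at 27.9 and 38.9 TPM in E14Tg2a, 54.0 and 83.3 TPM in ΔK9.1 and 109 and 102 TPM in ΔK9.2 (1.33, SE 0.31, adjusted p = 0.0146 by limma). It was called without ΔK9.1 replicate 2 and without ΔK9.2 replicate 3 (1.09 to 1.56 over the 6). *Tmem54*, a membrane protein, had 2.34 and 3.28 TPM against 6.30 to 14.9 TPM (1.56, adjusted p = 0.00334 by limma). *Slc35d3*, of the nucleotide sugar transporter family, had 1.08 and 2.88 TPM against 3.29 to 11.0 TPM (1.51, adjusted p = 0.00296 by limma). *Gfra1*, the GDNF co-receptor, had 0.306 and 0.529 TPM against 1.75 to 3.87 TPM (1.36, adjusted p = 0.0278 by limma). *Pdzd4*, a PDZ domain protein, had 28.7 and 39.4 TPM against 75.1 to 145 TPM (1.56, adjusted p = 0.0177 by limma). The predicted gene *Gm4756* (2.29), the small RNA model *Gm27998* (1.71) and the host transcript *Mir670hg* (1.46) complete the 10 largest rises among called genes. Of the 10, 0 were called without E14Tg2a replicate 2, 4 without E14Tg2a replicate 3, 3 without ΔK9.1 replicate 3, 3 without ΔK9.2 replicate 2, 7 without ΔK9.2 replicate 3 and 10 without ΔK9.1 replicate 2.

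No gene of the naive or core pluripotency lists was called in the mean of both clones. *Pou5f1* was at 848 and 959 TPM in E14Tg2a and 1230.4 to 1665 TPM in the clones (0.64, adjusted p = 0.350 by limma). *Klf2*, a Krüppel-like factor of naive ES cells, was at 20.2 and 21.1 TPM in E14Tg2a, 49.4 and 87.3 TPM in ΔK9.1 and 28.4 and 32.6 TPM in ΔK9.2 (1.08, adjusted p = 0.0816 by limma). In the comparison of ΔK9.1 *Klf2* passed (1.62, adjusted p = 0.0234 by limma), and in that of ΔK9.2 it did not (0.54, adjusted p = 0.652). In the mean of both clones it was called without ΔK9.1 replicate 2 (1.28). *Zfp42* (REX1), a marker of naive cells, had 40.5 and 43.4 TPM against 43.7 to 93.6 TPM (0.57, adjusted p = 0.389 by limma), and *Dppa5a*, an ES cell RNA-binding protein, had 799 and 755 TPM against 596.5 to 1348 TPM (0.27, adjusted p = 0.773 by limma). For *Pou5f1*, *Klf2* and *Zfp42* every clone library was above both E14Tg2a libraries, whereas *Dppa5a* overlapped. The medians were 0.22 over the 15 naive and 0.30 over the 15 core genes, with 9 and 12 members above 0. The clone libraries were all above E14Tg2a for 7 naive and 6 core genes and all below for 2 and 1, beside 12.8% above and 19.6% below over all genes. ΔK9.1 had a naive median of 0.40 and a core median of 0.44, where ΔK9.2 had 0.05 and 0.17. The median of core genes was 0.15 without ΔK9.2 replicate 2 and 0.46 without ΔK9.2 replicate 3. The median of the formative list was 0.32, with 0.11 without E14Tg2a replicate 2 and 0.56 without E14Tg2a replicate 3.

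The remaining lists held few calls. *Kdr*, the VEGF receptor of blood and vessel precursors, was the 1 gene of 27 listed for blood and endothelium that fell (33.6 and 22.9 TPM against 1.88 to 11.4 TPM, -2.0, SE 0.54, adjusted p = 0.0356 by limma) and was called only without ΔK9.1 replicate 2 (-2.52 to -1.47 over the 6). In surface ectoderm and epithelium 2 of 16 fell, *Krt8* and the ligand *Wnt6* (20 and 14.7 TPM against 1.12 to 8.02 TPM, -1.79, SE 0.39, adjusted p = 0.00803 by limma), the latter lost only without E14Tg2a replicate 2 (-1.58). None was called of 23 listed neural ectoderm genes (median 0.15), 10 trophoblast genes (-0.66), 12 germ cell genes (-0.09), 5 listed genes of the two-cell-like state (0.08), 24 glycolysis and hypoxia genes (0.03) or 35 Hox genes (-0.35). *Stmn2* and *Zic5*, the neural genes with the highest mean level, had log2 fold changes of -0.12 and 0.62, *Peg10* and *Cdx2* of the trophoblast list -1.41 and -0.94, *Sycp3* of the germ cell list -1.04, *Ldha* and *Pkm* of glycolysis -0.19 and 0.20, *Hoxb1* and *Hoxb2* -0.75 and -0.89, and *Gm4340* and *Zscan4f* of the two-cell-like list -0.13 and 0.21. The adjusted p of these 11 ranged from 0.0633 to 0.974 by limma. Without ΔK9.1 replicate 3 the values were 0.10 for *Cdx2*, -0.05 for *Hoxb1* and -0.22 for *Hoxb2*, and without ΔK9.1 replicate 2 they were -1.97, -1.45 and -1.56. Leaving out 1 library also turned the sign of *Stmn2*, *Gm4340* and *Zscan4f*, whose values lay near 0. The median of the Hox genes was 0.01 without ΔK9.1 replicate 3, 0.07 without E14Tg2a replicate 2, -0.77 without ΔK9.1 replicate 2 and -0.87 without E14Tg2a replicate 3. The trophoblast median was -0.18 without ΔK9.1 replicate 3 and -0.41 without E14Tg2a replicate 2.

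Position in the genome was uneven among the lower genes. Between 50 and 80 Mb of chromosome 14 (mm10) 73 of the 261 listed genes (28.0%) were lower and 0 higher, beside 0.939% lower outside. The 5 largest called falls there were *Rpph1* (-2.88), *Gata4*, *Clu* (-2.0), *Lcp1* (-1.81) and *Bmp1* (-1.80). *Rpph1* is the RNA of RNase P, which has no poly-A tail and is read poorly by these libraries (15.4 and 7.43 TPM against 0 to 1.71 TPM). *Clu*, a secreted chaperone, had 20.2 and 22.3 TPM against 2.49 to 6.24 TPM. *Lcp1*, an actin-bundling protein of blood cells, had 4.01 and 4.95 TPM against 0.518 to 0.586 TPM, and *Bmp1*, a collagen-processing protease, 14.9 and 11.1 TPM against 2.10 to 3.52 TPM. *Tpt1*, a translation-associated gene expressed in most cell types, was the most abundant example given here (6375 and 5703 TPM against 2692 to 3000 TPM, -1.09, adjusted p = 0.000471 by limma), named after its values were seen. Of the 224 lower genes 35 were called without each of the 6 libraries in turn, 22 of them in the segment. Of the 41 higher genes 1 was, *Ttbk1*, a tau kinase (0.131 and 0.324 TPM against 1.07 to 2.17 TPM, 1.14).

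The median of the 261 genes of the segment was -0.52, -0.56, -0.78 and -0.67 on days 0, 4, 6 and 8, and it was below 0 in 243, 243, 246 and 237 genes. The difference of day 6 from day 0 was called for 4 of the 261, that from day 4 for 2 and that from day 8 for 4. Over all genes the shares called were 0.275%, 0.0857% and 0.331%. Relative to the gene means over the 33 libraries, the segment's median in E14Tg2a was 0.73 and 0.59 in replicates 2 and 3 of day 6 and 0.43 to 0.75 in replicates 2 and 3 of the other days, but 0.03 to 0.24 in replicate 1, which day 6 lacks. In the clone libraries of day 6 it was -0.22 to -0.15.

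Chromosomes 1 and 8 and the rest of chromosome 14 were shifted in the same direction. The median log2 fold change over genes averaging 5 TPM or more was -0.24 on chromosome 1 (468 of 569 genes below 0), -0.20 on chromosome 8 (463 of 570) and -0.27 on chromosome 14 outside the segment (150 of 187). In windows of 20 Mb with at least 20 genes it ranged from -0.27 to -0.21 on chromosome 1 (9 windows) and from -0.26 to -0.14 on chromosome 8 (7 windows). On chromosome 14 outside the segment only 3 windows held enough genes, and the range was -0.41 to -0.22. The medians of the other 17 chromosomes, over all listed genes, lay between -0.05 and 0.03. Chromosome 1 held 19 of the 224 lower genes (2.07% of its listed genes), chromosome 8 19 (2.24%) and chromosome 14 82 (14.3%), and 104 lower genes (0.743%) lay elsewhere. The counts of chromosomes 1 and 8 were 5 and 1 without E14Tg2a replicate 2, 10 and 9 without E14Tg2a replicate 3, 11 and 6 without ΔK9.1 replicate 3, 10 and 9 without ΔK9.2 replicate 2 and 15 and 12 without ΔK9.2 replicate 3. *Foxf1*, *Hand2*, *Acta1* and *Nkd1* lie on chromosome 8 and *Cfc1*, *Cxcr4*, *Twist2* and *Wnt6* on chromosome 1. In E14Tg2a of the other days the median of chromosome 1 was 0.07 to 0.27 in replicates 2 and 3 and -0.04 to -0.01 in replicate 1. That of chromosome 8 was 0.04 to 0.25 and -0.10 to -0.07, and that of chromosome 14 outside the segment 0.05 to 0.31 and -0.12 to -0.03. Since day 6 has only replicates 2 and 3, lower levels in the clones and higher levels in these wild-type cultures cannot be told apart for genes of these chromosomes. The part of the shifts in the single genes was not tested. With the genes of all 3 chromosomes left out of the fit, 29 higher and 78 lower genes were called.

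Each clone was also set against the same 2 E14Tg2a libraries, so that the results of the clones are not independent. In ΔK9.1, 58 genes were higher and 206 lower (0.355% and 1.26% of all genes), and in ΔK9.2 26 and 117 (0.159% and 0.716%). Of the 224 lower genes 170 were called in the comparison of ΔK9.1, 104 in that of ΔK9.2, 89 in both and 39 in neither. Of the 41 higher genes 27 were called in ΔK9.1, 12 in ΔK9.2 and 5 in both. The median log2 fold change of the lower genes was -1.36 for ΔK9.1 and -1.26 for ΔK9.2. ΔK9.1 replicate 3 was the lowest of the 4 clone libraries for 171 of the 224 lower genes and the highest for 25 of the 41 higher genes. In ΔK9.1, 19 genes were called without its replicate 3, against 678 without ΔK9.1 replicate 2. Without E14Tg2a replicate 2 the calls numbered 40 for ΔK9.1 and 24 for ΔK9.2, without E14Tg2a replicate 3 161 and 89, and ΔK9.2 had 36 without its replicate 2 and 78 without its replicate 3.

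Between the clones 1 gene was called. *Hist1h4m*, a replication-dependent histone H4 gene whose mRNA carries no poly-A tail and which has near-identical copies, was at 0 TPM in E14Tg2a and ΔK9.1 and at 1.26 and 2.24 TPM in ΔK9.2 (ΔK9.1 less ΔK9.2 -1.44, SE 0.14, adjusted p = 1.88e-06 by limma). In all 693 genes had an unadjusted p under 0.05 in that comparison. Leaving out 1 library gave 3 to 18 genes, the highest number without ΔK9.1 replicate 2 and the lowest without either E14Tg2a library, 4 without ΔK9.2 replicate 3, 6 without ΔK9.1 replicate 3 and 8 without ΔK9.2 replicate 2.

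The day 6 genes were followed on the other days. The levels of those days do not enter the day 6 fold changes, but their spread enters the day 6 calls, since 1 model was fitted to all 33 libraries, so the counts by day are not independent of each other. On day 0, 36 genes were higher and 27 lower in the clones (0.22% and 0.165% of all genes), on day 4 14 and 116 (0.0857% and 0.71%) and on day 8 135 and 558 (0.826% and 3.42%). Of the 151 lower genes outside the chromosome 14 segment, 0 were lower on day 0, 15 on day 4 (9.93% of them and 12.9% of the 116) and 52 on day 8 (34.4% of them and 9.32% of the 558), and their median log2 fold change was -0.07, -0.29 and -0.65 on these days. Of the 73 lower genes of the segment 6, 13 and 33 were lower on days 0, 4 and 8. Of the 41 higher genes, 2, 0 and 10 were higher on days 0, 4 and 8. Between days 0 and 8 of E14Tg2a, 2594 genes rose and 1794 fell (15.9% and 11.0% of all genes). Of the 151 lower genes 120 (79.5%) were among those that rose and 1 among those that fell, and of the 41 higher genes 2 were among those that rose and 18 (43.9%) among those that fell.

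**Figure D4:**
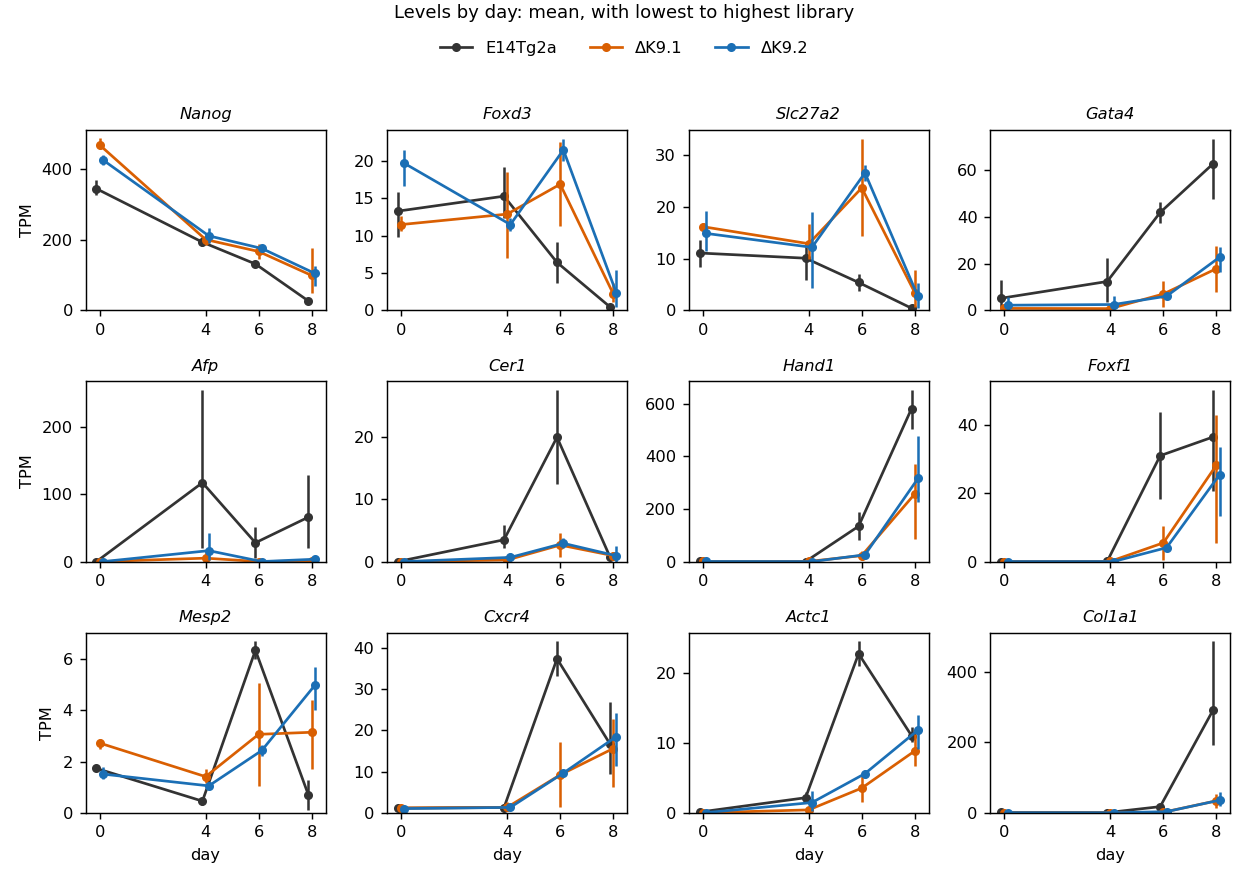
Mean TPM of 12 genes (y axis) by day of differentiation (x axis) in E14Tg2a (black), ΔK9.1 (orange) and ΔK9.2 (blue), with bars from the lowest to the highest library (3 libraries per line and day, and 2 on day 6). *Cer1*, *Cxcr4*, *Mesp2* and *Actc1* are highest on day 6 in E14Tg2a, whereas *Hand1*, *Gata4* and *Col1a1* go on to higher means on day 8.

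The courses of the called genes took several forms. *Cer1* in E14Tg2a was 3.51 ± 2.0 TPM on day 4 (mean ± SD, n = 3), 20 ± 10.6 on day 6 (n = 2) and 0.747 ± 0.479 on day 8 (n = 3), and no day's mean in a clone passed 2.94 TPM. *Cxcr4* in E14Tg2a was 1.27 ± 0.538 TPM on day 4, 37.4 ± 6.09 on day 6 and 16.7 ± 9.14 on day 8, and in ΔK9.1 1.33 ± 1.03, 9.21 ± 11.1 and 15.6 ± 8.47. On day 8 its log2 fold change was 0.03. *Hand1* in E14Tg2a was 0.231 ± 0.169 TPM on day 4, 134 ± 74.6 on day 6 and 582 ± 74.7 on day 8, and in ΔK9.2 0.198 ± 0.00624, 25.9 ± 2.68 and 316 ± 142 TPM. *Foxf1* reached 36.6 ± 14.9 TPM for E14Tg2a on day 8, 28.3 ± 20 for ΔK9.1 and 25.5 ± 10.8 for ΔK9.2. *Col1a1* was at 292 ± 169 TPM in E14Tg2a and 34.0 ± 19.6 and 35.8 ± 19.9 in the clones on day 8.

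*Afp* had its highest mean in E14Tg2a on day 4 (117 ± 123 TPM, n = 3) with 28.0 ± 33.1 on day 6 (n = 2), and in the clones it was 5.12 ± 8.03 and 16.3 ± 22.7 TPM on day 4. Its log2 fold change was -3.81, -3.97 and -4.40 on days 4, 6 and 8, and the difference between days was not called. The visceral endoderm list had a median of -2.35 on day 4 with 23 of 30 genes lower, -1.39 on day 6 with 6 lower and -2.17 on day 8 with 25 lower. Over all genes 0.71%, 1.37% and 3.42% were lower on these days. Day 6 has 2 libraries per line and the other days 3, so the numbers of calls are not alike between days. The difference of day 6 from day 4 was called for 0 of the 30 genes, and that from day 8 for 1. For the primitive streak list the medians were -0.15, -0.95 and 1.01 on days 4, 6 and 8, with 0, 2 and 0 genes lower and 10 higher on day 8. On day 8 0.826% of all genes were higher. Without ΔK9.1 replicate 3 the day 6 median of the streak list was -0.34. Its difference of day 6 from day 4 was called for 0 genes, and that from day 8 for 1. The core pluripotency median was -0.07, 0.30 and 1.09, with 8 genes higher on day 8. For this list the difference of day 6 was called for 0 genes against day 4 and for 0 against day 8. *Foxd3* was 6.43 ± 3.94 TPM in E14Tg2a on day 6 and 16.9 ± 7.97 and 21.5 ± 2.10 in the clones, and by day 8 it was at 0.468 ± 0.357, 2.24 ± 1.30 and 2.34 ± 2.70 TPM.

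The clone effect of day 6 was tested against that of each other day, all of which have an E14Tg2a replicate 1 that day 6 lacks. Days 0 and 4 also came before the aggregates were replated, and days 6 and 8 after. Against day 0, 45 genes (0.275%) were called, against day 4 14 (0.0857%) and against day 8 54 (0.331%), by limma. *Cfc1* differed from both day 0 (-3.09, SE 0.54, adjusted p = 0.0239) and day 4 (-2.65, SE 0.54, adjusted p = 0.0455), with log2 fold changes of 0.86, 0.41 and -2.24 on days 0, 4 and 6. On day 8 it was lower as well (-1.04, adjusted p = 0.0323). *Lgals3* (galectin 3, chr14:47367751-47386160, below the limit of the segment) had 23.6 and 12.1 TPM in E14Tg2a on day 6 and 1.64 to 4.90 TPM in the clones (-2.05), and differed from day 4 (-2.19, adjusted p = 0.0170) and day 8 (-2.49, adjusted p = 0.00214). *Mesp2* was lower on day 6 (-1.08) and higher on day 8 (1.58), a difference of -2.66 (SE 0.38, adjusted p = 0.00102), and *Acta1* changed from -2.53 to 0.38 (-2.91, SE 0.64, adjusted p = 0.0383). *Smad6* (-2.27) and *Asb4* (-2.37) differed from day 0, and *Myl7* (-1.95) from day 4. All 3 were also lower on day 8, with log2 fold changes of -1.02 for *Smad6*, -1.88 for *Asb4* and -2.15 for *Myl7* (adjusted p = 0.0103, 0.000314 and 2.08e-06). Among higher genes *Ugt8a*, an enzyme of galactolipid synthesis (0.862 and 1.49 TPM against 3.27 to 4.92 TPM), differed from day 0 (1.37, adjusted p = 0.0414) and *Slc35d3* from day 4 (2.14, adjusted p = 0.0170). These counts depend on single libraries. Against days 0, 4 and 8, 4, 2 and 9 genes were called without E14Tg2a replicate 2, and 15, 21 and 25 without E14Tg2a replicate 3. They were 159, 67 and 207 without ΔK9.1 replicate 2, and 6, 10 and 24 without ΔK9.1 replicate 3. They were 10, 13 and 34 without ΔK9.2 replicate 2, and 29, 12 and 41 without ΔK9.2 replicate 3.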

How the data were processed

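Stranded poly-A RNA-seq libraries were aligned by the authors to mm10 with STAR, and RSEM gave the deposited TPM values (transcript abundance corrected for length and scaled to a fixed sum), 1 column for each of 33 libraries and 16336 genes. The authors omitted outliers by principal component analysis before TPM were set, and what was omitted is not given in the sources used here. The TPM columns summed to 994284 to 998266. TPM holds no depth per library, so no counting error is given. A further 22 columns hold the authors' own comparisons (DESeq) and were not used. The 33 libraries were grouped by their titles into 12 groups of line and day.

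Levels were set on log2(TPM + 1) without a filter, and limma 3.58.1 (R 4.3.3, intensity trend) was fitted to all 33 libraries, since the study gives no test of this contrast on TPM. The spread is therefore shared over 12 groups (21 residual degrees of freedom, 4.2 prior). Benjamini-Hochberg adjustment ran over all 16336 genes, and genes with adjusted p under 0.05 and a log2 fold change beyond 1 were called. Replicates came from independent assays of the same lines per the study's methods, so p-values measure the spread between assays of 1 line. The script was tested on simulated data. Of the genes, 16112 (98.6%) were placed on mm10 with the GENCODE M21 annotation, and promoters come from RefSeq (GRCm38.p6).

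The members and gene lists were chosen with earlier results of these data known. The genes named are *Nanog* and its listed neighbours, the 10 largest called changes each way without overlap outside the chromosome 14 segment, the 5 largest called falls within it, all called members of each list (where none was called, the 2 with the highest mean TPM), genes called between the clones, and the 5 largest called differences each way between days. Alternatives were another pseudocount, minimum TPM, scaling, a replicate block, no trend, the segment left out, the day 6 libraries alone and each library left out. A minimum of 1 TPM in the day 6 libraries alone, the clones as 1 group and the removal of chromosomes 1, 8 and 14 were chosen after the data were seen.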

Additional observations from a re-analysis of the deposited data

Results flagged for a closer look

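In 5 of 56 called genes 1 of the 4 clone libraries stood apart from the other 3 by Dixon's criterion, where chance gives about 1 in 20, and in each it was ΔK9.1 replicate 3. The gap over the range was 0.896 for *Krt8*, 0.866 for *Spink1*, 0.864 for *Rubie*, 0.856 for *Gsc* and 0.832 for *Actc1*.

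The clone effect on day 6 differed between days for the following genes by the interaction contrast in limma, given as the day 6 log2 fold change less that of the other day. E14Tg2a has a replicate 1 on days 0, 4 and 8 but not on day 6. Against day 0 the differences were 4.77 for *Gm26448* (-0.00 on day 6 against -4.77), 1.77 for *Rln3*, 1.44 for *Tafa4*, 1.37 for *Ugt8a* and 1.23 for *Gm11657*, and in the other direction -3.22 for *Stard8*, -3.09 for *Cfc1*, -2.37 for *Asb4*, -2.27 for *Smad6* and -2.11 for *Zfr2*. Against day 4 they were 2.14 for *Slc35d3*, 1.70 for *Dnmt3bos*, 1.63 for *Irs4*, 1.43 for *Pgap1* and 1.13 for *Ttbk1*, and -2.65 for *Cfc1*, -2.19 for *Lgals3*, -1.95 for *Myl7*, -1.80 for *Rubie* and -1.62 for *Gm13713*. Against day 8 they were 4.16 for *Postn*, 2.87 for *Ly6h*, 2.42 for *Rnd2*, 2.20 for *Adamts2* and 2.18 for *Rfx6*, and -2.91 for *Acta1*, -2.71 for *Hoxb1*, -2.66 for *Mesp2*, -2.49 for *Lgals3* and -2.11 for *Lefty2*. Several of these rest on the other day: *Postn* was at -0.44 on day 6 and -4.61 on day 8, and *Rfx6* at -0.14 and -2.33.

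Between the clones on day 6, *Hist1h4m* differed by -1.44 (ΔK9.1 less ΔK9.2).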

How the results depend on the processing

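None of the 56 named and called genes changed sign under any alternative run. For each of them all 4 clone libraries lay on 1 side of both E14Tg2a libraries. Leaving out a library or changing the pseudocount could therefore not turn the sign. The day 6 counts were 41 higher and 224 lower, with 264 called for ΔK9.1, 143 for ΔK9.2 and 1 between the clones, and 45, 14 and 54 differed from days 0, 4 and 8. A pseudocount of 0.1 gave 70 higher genes and 19, 0 and 16 differences from days 0, 4 and 8 by limma (for day 4, 1056 genes had an unadjusted p under 0.05), and 41 of the 56 named genes were still called. A minimum of 5 TPM gave 0 genes between the clones by limma (499 at an unadjusted p under 0.05) and 6, 2 and 9 differences from days 0, 4 and 8. Without the chromosome 14 segment 135 genes were lower, 158 were called for ΔK9.1, 57 for ΔK9.2 and 9 differed from day 4. Without chromosomes 1, 8 and 14 these were 78, 115, 29 and 5, and 17 differed from day 0. Of the 56 named genes 51 lie outside the segment, and 46 of them were still called without it. Outside chromosomes 1, 8 and 14 lie 40 of the 56, and 28 of them were still called. The day 6 libraries alone gave 1 higher, 4 lower, 2 for ΔK9.1 and 1 for ΔK9.2, and none of the 56. With a minimum of 1 TPM they gave 23 higher, 117 lower, 52 for ΔK9.1, 14 for ΔK9.2 and 2 between the clones, with 17 of the 56 called, and with the clones as 1 group 24 higher and 167 lower. The causes were not tested.

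The lines share replicate numbers and were differentiated side by side, so a number may stand for a shared assay. Deviations of libraries with the same number correlated at 0.208, 0.114 and -0.00707 between lines on day 6. With 2 libraries per line these values cannot decide whether the numbers pair the libraries. The main fit did not pair them. A replicate block gave 59 higher and 291 lower genes and 100 differences from day 8. A replicate block within day gave 80 higher, 361 lower, 502 for ΔK9.1, 322 for ΔK9.2 and 145, 34 and 318 differences from days 0, 4 and 8. Both kept all 56 named genes.

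Leaving out 1 library gave 4 to 117 higher and 54 to 414 lower genes, 19 to 678 for ΔK9.1, 24 to 174 for ΔK9.2 and 3 to 18 between the clones. It gave 4 to 159, 2 to 67 and 9 to 207 differences from days 0, 4 and 8. TPM gives no depth per library, so what depth limits was not assessed.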

Other observations

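*Gm14303* was listed at 0 in both E14Tg2a libraries of day 6 and at 30.8 to 70.8 TPM in the clones (adjusted p = 0.0873 by limma). *Gm44389* was at 37.1 and 28.1 TPM in E14Tg2a and listed at 0 in all 4 clone libraries (adjusted p = 0.0925 by limma). Both were chosen after their values were seen.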
